A study of Mus musculus with 10 samples.

Results

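Interferon-stimulated genes encode the proteins that cells make after they meet an interferon. A set of 43 such genes, chosen by symbol, was followed in the jejunum of newborn mice that overexpress interleukin 23 (IL-23). All 43 were among the 24062 genes of the count tables, and all 43 had at least 5 counts in at least 1 library and so entered the test. Of these, 15 were higher and 7 were lower in the mice that overexpress IL-23 at an adjusted p under 0.05, where 9.74% and 8.76% of all tested genes were. The higher genes were mainly GTPases that act against microbes inside cells, together with Ido1 and Cd274, and the lower genes included Ifit1, Ifit2, Ifit3, Rsad2 and Ifi27.

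The libraries came from jejunum removed from C57BL/6 mice at postnatal day 5. KSR23 mice carry, at ROSA26, a cassette for both subunits of IL-23 that is silent until Cre removes a floxed STOP. The Cre comes from the K14 promoter, which is active in keratinocytes. The study measured more transcript of both subunits in skin than in tongue, esophagus and gut. Whether the transgene was active in the jejunum was not tested. The control group was wild type (WT) littermates, and whether any of them carried the cassette or the Cre alone was not given. Each group had 5 libraries, and the comparison throughout was KSR23 over WT. RNA was taken from the whole tissue, so fewer cells of a type and less RNA per cell cannot be told apart.

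Library totals were 25.5 to 32.0 M counts in WT and 31.2 to 60.9 M in KSR23. Levels are given as CPM, which is counts scaled to 1 M counts of library total with TMM factors. On library totals without those factors, a count of 3 stood for 0.0492 to 0.118 CPM. Il12b, which encodes the p40 subunit in the cassette, had 0 to 5 counts in the WT libraries and 9 to 40 in the KSR23 libraries, whereas Il23a (p19) had 1 to 14 and 8 to 34. Replicates 4 and 5 stood apart in both groups because they lay between the others. Over 9407 genes with a mean level above 5 CPM, they were the highest or lowest library of their group in 8.51% to 18.3% of genes, against 45.9% to 75.9% for replicates 1 to 3. The study calls the libraries of a group biological replicates, and the labels name no animals. Whether replicates 4 and 5 are independent of the rest was not tested, and the SE and p-values over 5 libraries per group hold only if they are. The counts of members and lists are therefore also given for replicates 1 to 3. Y-linked genes summed to 492 to 6347 counts in WT and to 1, 1, 9, 4330 and 9035 in KSR23, so male and female tissue was unevenly spread over the groups. Xist, which is transcribed in female cells, had 2 to 919 counts in WT and 14 to 1685 in KSR23. Some libraries held both signals. Y-linked and Xist counts were 492 and 919 in WT replicate 3, 4471 and 167 in WT replicate 5, and 4330 and 691 in KSR23 replicate 4. Whether a library held RNA of more than 1 animal was not tested. Deviations of a library from the mean of all 10 also went with transcript length (9025 genes), taken here as the joined exons of a gene. Spearman's rho was -0.322 to -0.123 in WT and 0.042 to 0.233 in KSR23. With GC content rho was -0.199 to 0.259 in WT and -0.286 to 0.198 in KSR23. It was negative in WT replicates 1 and 5 and in KSR23 replicates 3 and 5.

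Interferons act through receptors that carry Janus kinases, which phosphorylate STAT proteins. Type I and type III interferons activate a complex with STAT2 and IRF9 that binds the interferon-stimulated response element (ISRE), whereas interferon gamma, the type II interferon, activates STAT pairs that bind the gamma-activated site (GAS). In the gut, epithelial cells respond strongly to type III interferon, and the GTPases induced by interferon gamma attack the vacuoles in which bacteria and protozoa live.

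The 2 elements can be read in the promoters of the members. RefSeq promoter windows (GRCm38.p6, the build called mm10, from 250 bases before to 50 bases after the transcription start) were at hand for 31 of the 43 members. The ISRE was searched as GAAA, any 2 bases and GAAA again, and the GAS as TTCNNNGAA, on both strands, where a GAS read on either strand is the same match. The ISRE letters were present in the windows of 19 of 31 members (61.3%), against 3.99% of the 27025 windows in the table and 3.76% of the 12918 windows of tested genes. The GAS letters were present in 12 of 31 members (38.7%), against 9.55% and 8.76%. These matches describe the letters in the window and were not tested as binding sites. The GTPase genes with a window that were higher in KSR23 are shown first, because they hold most of the calls higher, as the 170 bases just before the RefSeq start, 5′ to 3′ on the strand of the gene, with matches to either element in capitals. The stretches are those of Gbp2 at chr3:142620493-142620662 on the plus strand, Gbp3 at chr3:142559874-142560043 on the plus strand, Gbp5 at chr3:142496764-142496933 on the plus strand, Gbp7 at chr3:142530166-142530335 on the plus strand, Igtp at chr11:58199386-58199555 on the plus strand, Irgm1 at chr11:48871421-48871590 on the minus strand and Irgm2 at chr11:58214807-58214976 on the plus strand.
Gbp2: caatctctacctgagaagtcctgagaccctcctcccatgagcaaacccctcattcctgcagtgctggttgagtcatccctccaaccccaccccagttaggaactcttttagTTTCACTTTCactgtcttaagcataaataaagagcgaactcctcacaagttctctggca
Gbp3: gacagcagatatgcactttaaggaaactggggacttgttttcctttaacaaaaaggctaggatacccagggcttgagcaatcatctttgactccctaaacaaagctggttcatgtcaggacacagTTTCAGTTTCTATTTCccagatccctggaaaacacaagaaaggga
Gbp5: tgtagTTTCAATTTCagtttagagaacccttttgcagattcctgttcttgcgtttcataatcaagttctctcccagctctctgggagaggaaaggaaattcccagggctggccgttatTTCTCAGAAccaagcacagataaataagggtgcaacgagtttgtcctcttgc
Gbp7: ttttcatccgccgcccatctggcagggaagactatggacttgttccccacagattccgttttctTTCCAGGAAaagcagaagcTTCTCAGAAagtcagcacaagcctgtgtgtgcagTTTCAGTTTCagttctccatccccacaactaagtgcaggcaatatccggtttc
Igtp: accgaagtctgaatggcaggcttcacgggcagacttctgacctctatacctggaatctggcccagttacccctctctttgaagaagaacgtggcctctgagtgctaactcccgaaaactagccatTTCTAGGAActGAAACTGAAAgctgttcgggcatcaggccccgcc
Irgm1: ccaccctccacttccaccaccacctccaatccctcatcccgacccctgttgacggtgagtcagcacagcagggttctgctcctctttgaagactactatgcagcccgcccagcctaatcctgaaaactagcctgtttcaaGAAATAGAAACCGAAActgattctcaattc
Irgm2: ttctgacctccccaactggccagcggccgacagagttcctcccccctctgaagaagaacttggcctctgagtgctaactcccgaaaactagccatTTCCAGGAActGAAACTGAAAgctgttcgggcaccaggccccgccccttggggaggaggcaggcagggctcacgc

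All 7 held an ISRE match, whereas Cd274, the other higher member with a window, held neither element. In Igtp the GAS match began 45 bases before the start and the ISRE match 34 bases before it, and in Irgm2 they began at 75 and 64 bases, so the pair had the same spacing in these neighbouring genes. Gbp5 and Gbp7 held GAS matches as well, whereas Gbp2, Gbp3 and Irgm1 held ISRE letters alone in the window. The same stretch is shown for the 3 genes lower in KSR23 whose windows held an ISRE match, and for Isg15, which was not called and held one too. Because they were picked for that match, they do not stand for all lower genes. Of the other lower genes with a window, Ifit2 held a GAS match and no ISRE match, and Xaf1 neither. The stretches are those of Ifit1 at chr19:34640719-34640888 on the plus strand, Ifit3 at chr19:34583359-34583528 on the plus strand, Rsad2 at chr12:26456453-26456622 on the minus strand and Isg15 at chr4:156200819-156200988 on the minus strand.
Ifit1: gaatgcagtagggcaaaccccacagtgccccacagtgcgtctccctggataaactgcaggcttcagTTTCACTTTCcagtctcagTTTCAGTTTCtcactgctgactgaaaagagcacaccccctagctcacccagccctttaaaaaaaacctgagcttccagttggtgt
Ifit3: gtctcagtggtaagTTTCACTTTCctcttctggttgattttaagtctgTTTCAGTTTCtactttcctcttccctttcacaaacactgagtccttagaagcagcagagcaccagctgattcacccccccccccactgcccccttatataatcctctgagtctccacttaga
Rsad2: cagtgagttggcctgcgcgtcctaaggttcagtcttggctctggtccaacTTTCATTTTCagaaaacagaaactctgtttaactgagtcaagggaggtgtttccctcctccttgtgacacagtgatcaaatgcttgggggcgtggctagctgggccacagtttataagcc
Isg15: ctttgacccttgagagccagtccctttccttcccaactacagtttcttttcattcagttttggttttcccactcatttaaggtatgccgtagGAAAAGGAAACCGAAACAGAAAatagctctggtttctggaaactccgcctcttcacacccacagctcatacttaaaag

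Ifit1 and Ifit3 held 2 separate ISRE matches each, Rsad2 held 1, and Isg15 held a run of 3 overlapping matches that began 78, 72 and 66 bases before the start. None of these 4 windows held a GAS match. Counted over the windows, the ISRE letters were present in 7 of the 8 higher members, 3 of the 5 lower members and 9 of the 18 that were not called. The GAS letters were present in 4 of 8, 1 of 5 and 7 of 18. With so few windows per class, the shares are a description and the classes were not compared by a test.

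Each gene was tested with edgeR's likelihood ratio test over all 17632 genes with enough counts, and a gene was called at a Benjamini-Hochberg adjusted p under 0.05. Over all tested genes 18.5% were called, 9.74% higher and 8.76% lower in KSR23. Of the 43 members 15 were called higher, 7 lower and 21 were not called, and their median log2 fold change was 0.15 against 0.03 over all tested genes. The 5 KSR23 libraries all lay above the 5 WT libraries for 13 members, against 7.41% of tested genes, and all below for 5 members, against 6.99%. In replicates 1 to 3 alone the signs of all 22 called members were unchanged, but 4 were called higher and 2 lower by the likelihood ratio test, where 2.01% and 1.35% of all tested genes were. With edgeR's quasi-likelihood F test on those 6 libraries Ido1 was called higher and 0 members lower, where 0.574% and 0.238% of genes were, and 10 higher and 4 lower members had an unadjusted p under 0.05.

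The counts were also read from other fits of all 10 libraries. The quasi-likelihood F test called 15 members higher and 5 lower (8.47% and 6.91% of all tested genes), and DESeq2 15 and 8 (10.7% and 9.95%). With offsets for transcript length and GC content added in each library, 11 were called higher and 6 lower (7.47% and 8.50%), and with the Y-linked share of counts as a covariate 11 and 4 (4.46% and 5.73%). In a fit with 1 surrogate variable 18 were called higher and 13 lower, where 20.0% and 17.2% of all tested genes were called.

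**Figure D1:**
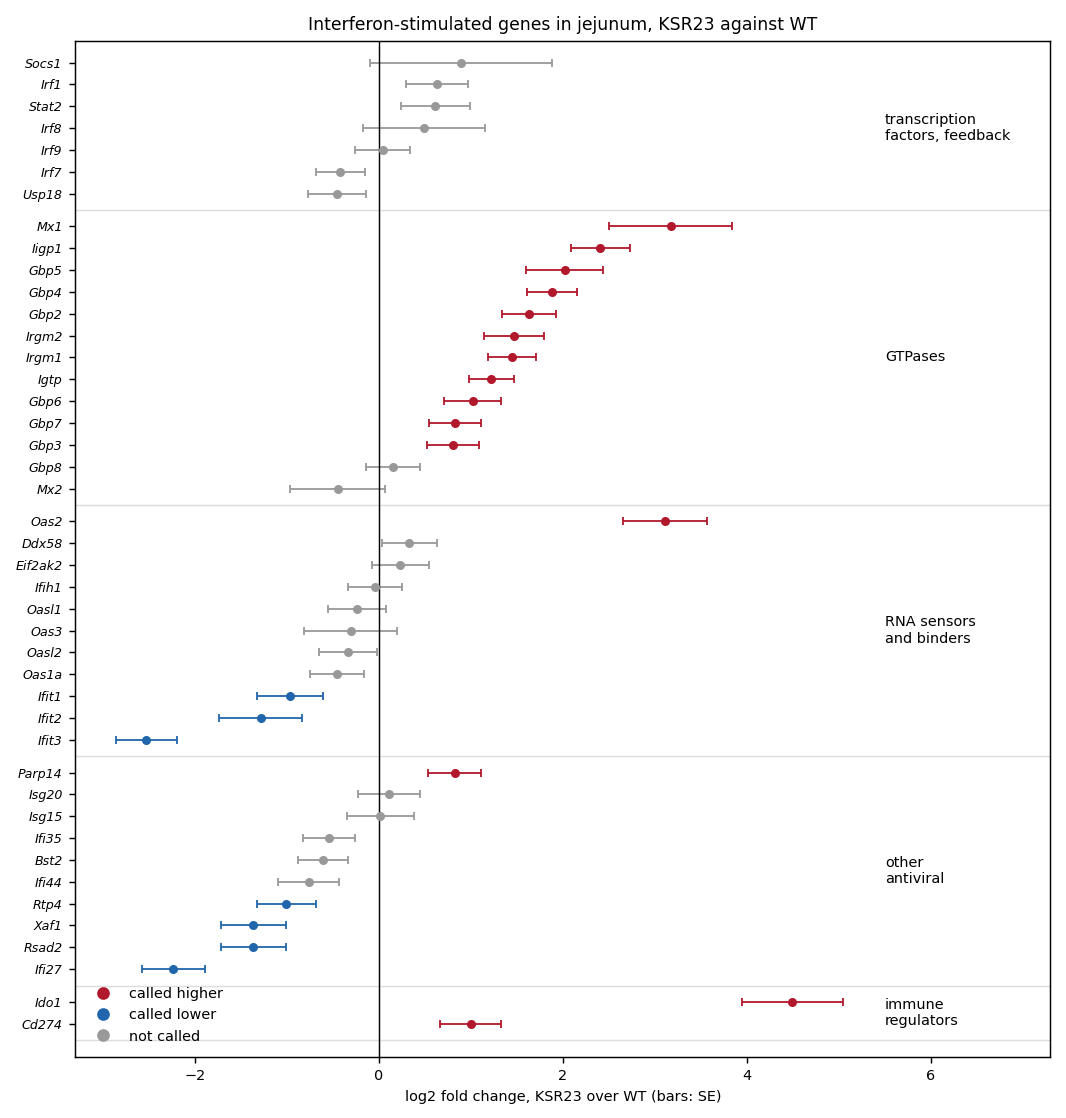
Log2 fold change of each of the 43 members, KSR23 over WT (horizontal axis, points with the standard error of the fit, 5 libraries per group), grouped by role, with colours for the calls at an adjusted p under 0.05. The GTPases lie mostly to the right, with 11 of 13 called higher, whereas the 7 genes called lower are all RNA-binding or other antiviral effectors.

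The guanylate-binding proteins, the immunity-related GTPases and the Mx proteins formed the group with the most calls. Calls higher numbered 11 of 13 genes, and calls lower 0, with the likelihood ratio test, the quasi-likelihood F test and DESeq2, and 0 genes were lower at an unadjusted p under 0.05. Over all tested genes the shares higher and lower were 9.74% and 8.76%, 8.47% and 6.91%, and 10.7% and 9.95% with these tests. In replicates 1 to 3 alone 2 of the 13 (Iigp1 and Gbp4) passed the likelihood ratio test as higher, beside 2.01% higher and 1.35% lower of all tested genes. The quasi-likelihood F test there called 0 (0.574% and 0.238% of all tested genes), and 8 were higher and 0 lower at an unadjusted p under 0.05. The group's median log2 fold change was 1.45.

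Iigp1, an immunity-related GTPase that acts at the vacuoles of intracellular parasites, was measured at 32.3, 14.9, 17.0, 21.1 and 25.2 CPM in WT replicates 1 to 5. In the KSR23 replicates it was measured at 137, 59.9, 137, 128 and 125 CPM. The groups did not overlap, and KSR23 replicate 2 was low within its group. The log2 fold change was 2.41 ± 0.32 (SE, n = 5 per group, edgeR adjusted p = 1.4e-10), a 5.31-fold difference, and it was 2.42 in replicates 1 to 3 (adjusted p = 0.00506).

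Irgm1, a regulator of the other immunity-related GTPases, lies at chr11:48861968-48871683 in the mm10 build. It stood at 47.3, 40.8, 39.6, 42.1 and 46.8 CPM in WT and at 138, 72.0, 141, 121 and 118 CPM in KSR23. The WT libraries were close together and all lay below KSR23 replicate 2, the lowest of its group. The fitted log2 fold change was 1.45 ± 0.26 (SE, edgeR adjusted p = 2.62e-06), and 1.5 without a call in replicates 1 to 3 (adjusted p = 0.0917).

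Igtp and Irgm2, GTPases of the same family, are neighbours on chromosome 11, at 58199556 to 58207591 and 58199618 to 58222782, and their annotations overlap, so that reads lying in both could not be assigned to either by strict counting. Igtp stood at 49.1, 46.0, 42.0, 50.4 and 45.6 CPM in WT and at 117, 77.5, 127, 111 and 113 CPM in KSR23. Irgm2 stood at 24.2, 22.7, 12.1, 24.6 and 22.3 CPM in WT and at 71.3, 30.3, 70.4, 61.3 and 60.4 CPM in KSR23. Both were higher in every KSR23 library than in any WT library. The log2 fold changes were 1.22 ± 0.25 for Igtp (SE, edgeR adjusted p = 2.46e-05) and 1.47 ± 0.32 for Irgm2 (adjusted p = 0.000186). Neither was called in replicates 1 to 3 (edgeR adjusted p = 0.172 and 0.147).

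The guanylate-binding proteins coat vacuoles and bacteria in the cytosol and help to open them. Gbp2 stood at 11.6, 6.01, 9.17, 10.1 and 11.6 CPM in WT and at 30.5, 21.4, 33.8, 32.8 and 31.7 CPM in KSR23. Gbp4 stood at 8.91, 6.40, 6.97, 6.62 and 7.36 CPM in WT and at 30.2, 20.7, 32.4, 26.1 and 24.1 CPM in KSR23. Neither gene overlapped between the groups, and in both KSR23 replicate 2 was the lowest of its group. The log2 fold changes were 1.63 ± 0.29 for Gbp2 (SE, edgeR adjusted p = 2.14e-06) and 1.88 ± 0.27 for Gbp4 (adjusted p = 1.78e-09). Gbp4 was also called in replicates 1 to 3 (log2 fold change 1.94, adjusted p = 0.0178), whereas Gbp2 was not (1.71, adjusted p = 0.0642).

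Gbp5, which promotes inflammasome assembly, was less abundant. It stood at 2.2, 0.530, 0.954, 1.18 and 1.13 CPM in WT and at 6.20, 2.26, 5.76, 4.60 and 5.59 CPM in KSR23. The lowest KSR23 library, replicate 2, lay just above the highest WT library. Its log2 fold change was 2.02 ± 0.42 (SE, edgeR adjusted p = 6.76e-05), and 1.98 without a call in replicates 1 to 3 (adjusted p = 0.129).

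Gbp3, Gbp6 and Gbp7 differed less. Their log2 fold changes were 0.80 ± 0.28 (SE, edgeR adjusted p = 0.0293), 1.02 ± 0.31 (adjusted p = 0.011) and 0.83 ± 0.29 (adjusted p = 0.0262). The groups overlapped for Gbp6 and Gbp7 through KSR23 replicate 2, which stood at 9.06 and 43.4 CPM against highest WT values of 9.41 and 48.8 CPM. All 3 calls were lost in replicates 1 to 3 (edgeR adjusted p of 0.376 to 0.521) and with the offsets for transcript length and GC content, and Gbp6 shared 67.3% of its 75-base stretches with the overlapping annotation Gm43302, so its counts are uncertain. Gbp8 stood at 4.39 to 5.02 CPM in WT and 3.19 to 6.24 CPM in KSR23 and was not called (log2 fold change 0.15 ± 0.29, SE, edgeR adjusted p = 0.776), and its annotation overlaps Gbp4 and Gbp9.

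Mx1, a GTPase that blocks influenza and related viruses in the nucleus of mouse cells, was rare. It had 0, 9, 13, 2 and 2 counts in WT and 106, 30, 36, 104 and 92 counts in KSR23. Every KSR23 library lay above every WT library, at 0.967 to 2.60 CPM against 0 to 0.477 CPM. On the log2 scale the fold change was 3.17 ± 0.67 (SE, edgeR adjusted p = 0.000132), and 2.32 in replicates 1 to 3 (adjusted p = 0.232). C57BL/6 mice carry a defective Mx1 gene, so its transcript here does not stand for the protein. Mx2, which GENCODE lists as a polymorphic pseudogene, overlapped between the groups at 2.13 to 6.01 CPM in WT and 0.387 to 3.68 CPM in KSR23 (log2 fold change -0.45 ± 0.52, SE, edgeR adjusted p = 0.613).

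**Figure D2:**
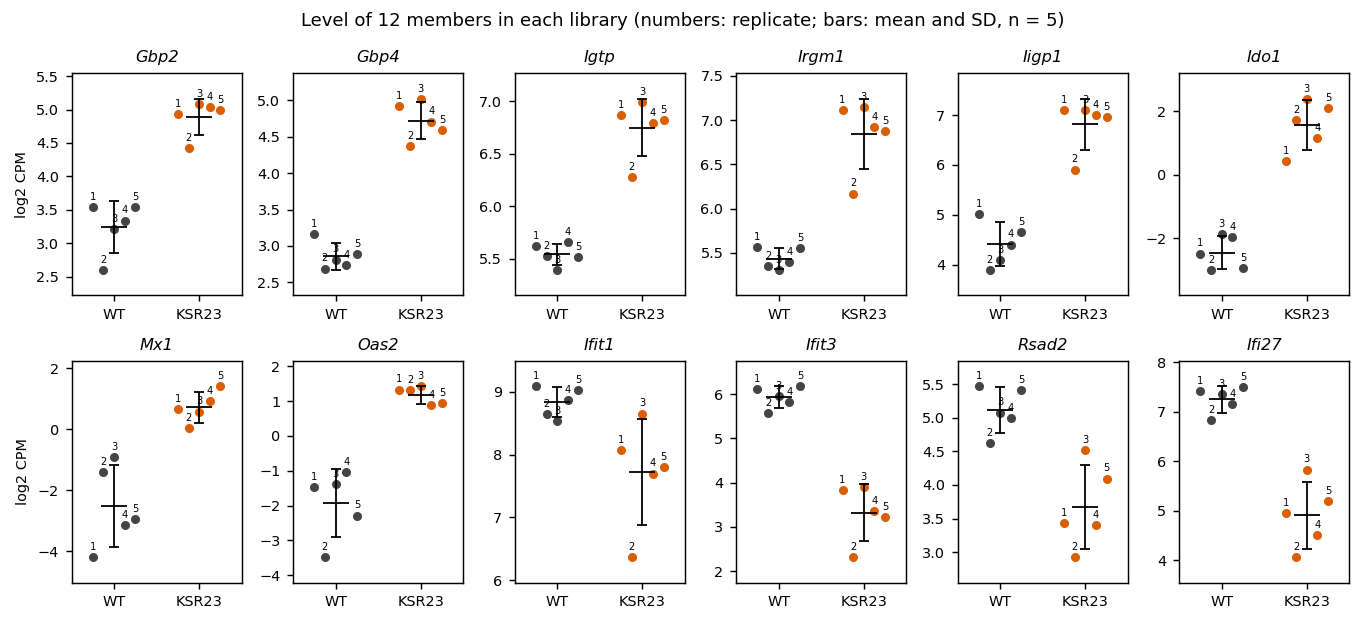
Level of 12 members in each library (vertical axis, log2 CPM with a prior count of 2; numbers are replicates; bars are the mean and SD of 5 libraries per group). Gbp2, Gbp4, Igtp, Irgm1, Iigp1, Ido1, Mx1 and Oas2 are separate and higher in KSR23, Ifit3, Rsad2 and Ifi27 are separate and lower, and Ifit1 overlaps because KSR23 replicate 3 reaches the WT range.

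Of the 11 RNA sensors and RNA-binding effectors Oas2 was called higher, Ifit1, Ifit2 and Ifit3 were called lower, and 7 were not called, where 9.74% and 8.76% of all tested genes were higher and lower. With the quasi-likelihood F test, and also in replicates 1 to 3 by the likelihood ratio test, 1 was higher (Oas2) and 1 lower (Ifit3). The IFIT proteins bind foreign RNA ends and block its translation, and their genes lie side by side on chromosome 19.

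Ifit3 (chr19:34583531-34588731) stood at 69.7, 47.6, 62.0, 56.2 and 72.6 CPM in WT and at 14.2, 4.93, 14.9, 10.1 and 9.29 CPM in KSR23. Every KSR23 library lay far below the lowest WT library. The log2 fold change was -2.53 ± 0.33 (SE, n = 5 per group, edgeR adjusted p = 5.44e-11), a level 5.76-fold higher in WT, and it was -2.36 in replicates 1 to 3 (adjusted p = 0.00874). Of its 75-base stretches 41.1% also occur in Ifit3b, a near-identical copy without a row in the tables, so the split of reads between the copies is uncertain.

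Ifit1 was the most abundant member per length in WT, at 545, 400, 370, 468 and 522 CPM, and stood at 269, 82.4, 402, 208 and 223 CPM in KSR23. KSR23 replicate 3 lay within the WT range and replicate 2 far below the rest. The fitted log2 fold change was -0.96 ± 0.36 (SE, edgeR adjusted p = 0.0448), but the quasi-likelihood F test did not call it (adjusted p = 0.0739), nor did 9 of the 10 fits that left out 1 library. Ifit2 stood at 409, 174, 211, 264 and 358 CPM in WT and at 149, 23.7, 192, 94.5 and 122 CPM in KSR23, again overlapping through KSR23 replicate 3. Its log2 fold change was -1.28 ± 0.45 (SE, edgeR adjusted p = 0.0334; 0.0717 with the quasi-likelihood F test). Neither Ifit1 nor Ifit2 was called in replicates 1 to 3 (edgeR adjusted p = 0.676 and 0.584).

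Oas2 belongs to the oligoadenylate synthetases, which make the signal that switches on RNase L when double-stranded RNA is present. It had 10, 1, 9, 15 and 4 counts in WT and 173, 76, 66, 101 and 66 counts in KSR23. These were 0.0354 to 0.432 CPM and 1.79 to 2.62 CPM, without overlap. Its log2 fold change was 3.11 ± 0.46 (SE, edgeR adjusted p = 1.58e-09) and 3.49 in replicates 1 to 3 (adjusted p = 0.000853).

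The remaining oligoadenylate synthetase genes did not follow Oas2. Oas1a stood at 55.1 to 83.0 CPM in WT and 34.0 to 78.4 CPM in KSR23 (log2 fold change -0.45, edgeR adjusted p = 0.313), with 47.6% of its stretches shared with Oas1g. Oas3 stood at 1.13 to 2.58 CPM and 0.318 to 2.62 CPM (-0.31, adjusted p = 0.742). The related genes Oasl1 and Oasl2 had log2 fold changes of -0.24 (adjusted p = 0.669) and -0.34 (adjusted p = 0.51). The cytosolic RNA sensors Ifih1 (MDA5) and Ddx58 (RIG-I) had log2 fold changes of -0.04 (adjusted p = 0.944) and 0.33 (adjusted p = 0.492), and Eif2ak2, the kinase PKR that halts translation, 0.23 (adjusted p = 0.672). The groups overlapped for all 7 of these genes, and a difference of their fold changes from that of Oas2 was not tested.

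Among the other antiviral effectors 4 of 10 genes were called lower, 1 higher and 5 were not called, where 8.76% and 9.74% of all tested genes were lower and higher. The likelihood ratio test on replicates 1 to 3 called Ifi27 lower and 0 higher, and the quasi-likelihood F test 0, with 3 lower and 0 higher at an unadjusted p under 0.05. Ifi27, a small mitochondrial protein, stood at 170, 114, 165, 142 and 180 CPM in WT and at 31.1, 16.7, 57.0, 22.7 and 36.8 CPM in KSR23. The highest KSR23 library, replicate 3, reached only 57.0 CPM. On the log2 scale the fold change was -2.23 ± 0.34 (SE, n = 5 per group, edgeR adjusted p = 1.92e-08), a level 4.70-fold higher in WT, and it was -2.07 in replicates 1 to 3 (adjusted p = 0.0249).

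Rsad2 encodes viperin, which makes a chain-terminating nucleotide. It stood at 44.2, 24.5, 33.6, 31.9 and 42.4 CPM in WT and at 10.8, 7.54, 22.8, 10.5 and 17.0 CPM in KSR23. Xaf1, a binding partner of the apoptosis inhibitor XIAP, stood at 87.5, 48.7, 81.7, 64.4 and 77.7 CPM in WT and at 29.3, 13.1, 47.9, 22.2 and 27.5 CPM in KSR23. Both were separate between the groups, though KSR23 replicate 3 came close to WT replicate 2 in each. The log2 fold change was -1.36 ± 0.35 for both (SE, edgeR adjusted p = 0.00192 for Rsad2 and 0.00183 for Xaf1), and neither was called in replicates 1 to 3 (adjusted p = 0.333 and 0.363).

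Rtp4, a chaperone that also limits flaviviruses, stood at 235, 161, 227, 185 and 240 CPM in WT and at 101, 48.6, 165, 88.3 and 120 CPM in KSR23. KSR23 replicate 3 overlapped the WT range. The fitted log2 fold change was -1.0 ± 0.32 (SE, edgeR adjusted p = 0.0155), and the call was lost with the length and GC offsets and in replicates 1 to 3 (adjusted p = 0.495). Parp14, a mono-ADP-ribosyltransferase, was the only gene of this group called higher, at 20.3 to 30.6 CPM in WT and 32.7 to 66.8 CPM in KSR23 without overlap (log2 fold change 0.83 ± 0.29, SE, edgeR adjusted p = 0.0298), and its call was lost with the same offsets and in replicates 1 to 3 (adjusted p = 0.471).

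Isg15, a ubiquitin-like protein that is conjugated to others after interferon, stood at 58.3, 41.9, 45.7, 50.6 and 60.4 CPM in WT and at 48.5, 21.7, 92.3, 39.5 and 58.0 CPM in KSR23. The KSR23 libraries lay on both sides of the WT libraries, and the log2 fold change was 0.02 ± 0.36 (SE, edgeR adjusted p = 0.981), with a sign that turned with the scaling. Bst2 (tetherin), which holds budding virus at the cell surface, was lower in every KSR23 library (23.7 to 30.9 CPM) than in any WT library (32.4 to 57.0 CPM), but was not called (log2 fold change -0.61, edgeR adjusted p = 0.103). DESeq2 and the edgeR fit with 1 surrogate variable did call Bst2 lower. Ifi44, Ifi35 and the nuclease gene Isg20 had log2 fold changes of -0.76 (adjusted p = 0.096), -0.54 (adjusted p = 0.181) and 0.11 (adjusted p = 0.87).

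Both immune regulators were called higher. Ido1 encodes indoleamine 2,3-dioxygenase, which breaks down tryptophan. It had 4, 2, 6, 7 and 2 counts in WT and 91, 101, 131, 122 and 151 counts in KSR23. These were 0.0707 to 0.220 CPM and 1.29 to 5.21 CPM, and the lowest KSR23 library lay well above the highest WT library. Its log2 fold change of 4.5 ± 0.55 (SE, n = 5 per group, edgeR adjusted p = 2.27e-13), a 22.6-fold difference, was the largest among the 43 members, and it was 4.56 in replicates 1 to 3 (adjusted p = 3.27e-05).

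Cd274 encodes PD-L1, the ligand that restrains T cells through PD-1. It stood at 2.2, 2.12, 1.80, 1.87 and 1.88 CPM in WT and at 3.71, 2.45, 6.20, 2.82 and 4.60 CPM in KSR23. The groups did not overlap, although KSR23 replicate 2 lay only a little above WT. On the log2 scale the fold change was 1.0 ± 0.34 (SE, edgeR adjusted p = 0.0221), and the call held in 5 of the 10 fits that left out 1 library, but not in replicates 1 to 3 (adjusted p = 0.454).

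Of the 7 transcription factors and feedback regulators 0 were called by edgeR's likelihood ratio test, its quasi-likelihood F test or DESeq2, and 0 had an unadjusted p under 0.05. The likelihood ratio test called 9.74% of all tested genes higher and 8.76% lower. In replicates 1 to 3 none of the 7 was called either. With 1 surrogate variable Irf1, Irf8 and Stat2 were called higher and Irf7 and Usp18 lower, where 20.0% and 17.2% of all tested genes were. Irf1, which interferon gamma induces directly, stood at 80.5, 183, 202, 143 and 106 CPM in WT and at 293, 266, 118, 251 and 183 CPM in KSR23 (log2 fold change 0.64, edgeR adjusted p = 0.194). Irf8, a factor of myeloid cells, varied 12.8-fold within WT (15.6 to 199 CPM) and 10.6-fold within KSR23 (23.1 to 245 CPM), more than it differed between the groups (log2 fold change 0.49, edgeR adjusted p = 0.673). For both genes WT replicate 1 and KSR23 replicate 3 were the lowest of their groups.

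Stat2 and Irf9, whose products are part of the complex that binds the ISRE, had log2 fold changes of 0.61 (edgeR adjusted p = 0.272) and 0.04 (adjusted p = 0.947). Irf7, which amplifies type I interferon, stood at 284 to 366 CPM in WT and 162 to 372 CPM in KSR23 (-0.42, adjusted p = 0.297). Of the feedback regulators, Usp18 removes ISG15 from its targets and blocks the type I receptor (-0.45, adjusted p = 0.353), and Socs1 inhibits Janus kinases. The counts of Socs1 were 1, 1, 25, 1 and 13 in WT libraries against 109, 6, 4, 35 and 8 in those of KSR23, a spread that left its fold change of 0.89 on the log2 scale undetermined (SE 0.99, edgeR adjusted p = 0.593).

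**Figure D3:**
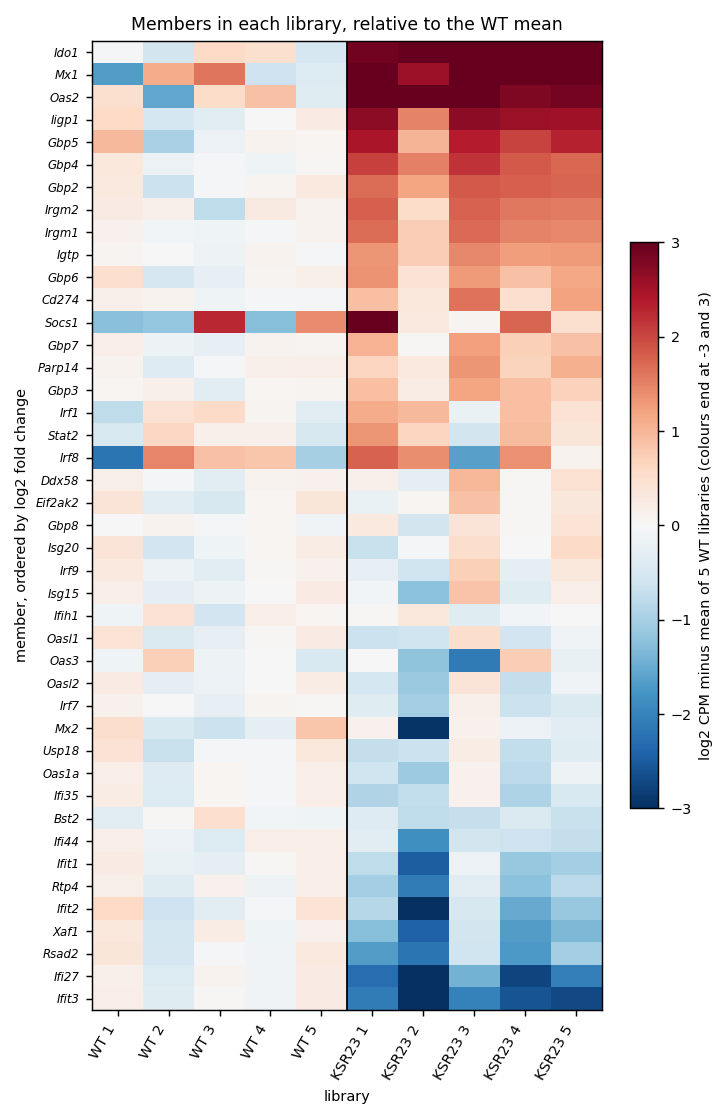
Level of the 43 members (vertical axis, ordered by log2 fold change) in each of the 10 libraries (horizontal axis), as log2 CPM minus the mean of the 5 WT libraries; red is higher, blue is lower and the colours end at -3 and 3. The genes at the top are red in the KSR23 libraries and mostly palest in KSR23 replicate 2, and those at the bottom are blue in the KSR23 libraries and darkest in KSR23 replicate 2.

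Read across libraries, KSR23 replicate 2 stood apart from the other KSR23 libraries. It was the lowest of the 5 for 30 of the 43 members, for 13 of the 15 called higher and for 7 of the 7 called lower. The median difference of the 15 higher members from the WT mean was 0.74 on the log2 scale here, against 1.55 to 1.77 in the rest of the group, and that of the 7 lower members was -2.47 against -1.67 to -0.56. The same library had the lowest level of the leukocyte gene Ptprc (CD45), at 7.74 CPM against 18.4 to 29.7 CPM in the rest of its group. Of the other leukocyte markers Cd52 and Cd53 were also lowest there, whereas Laptm5 (45.9 CPM) and Coro1a (29.0 CPM) were each the next to highest of the group. Without it 15 members were called higher and 6 lower. WT replicate 2 was likewise the lowest WT library for 21 of the 43 members.

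Per kilobase of exon, the levels of the members spread widely. In WT the highest mean levels were those of Ifit1 at 174 CPM per kilobase, Ifi35 at 140, Ifi27 at 105, Rtp4 at 98.4 and Irf7 at 88.9. In KSR23 they were those of Ifi35 at 96.1, Ifit1 at 89.2, Isg15 at 68.8, Irf7 at 66.6 and Irf1 at 55.9. The lowest in WT were Mx1 at 0.049, Oas2 at 0.0565 and Ido1 at 0.0758 CPM per kilobase, so the 3 largest fold changes belonged to the 3 rarest members. Neighbours in this order were not tested against each other.

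Divided by the interferon that is commonly described as their main inducer, the 16 interferon gamma genes held 12 calls higher, 0 lower and 4 not called, with a median log2 fold change of 1.12, where 9.74% and 8.76% of all tested genes were higher and lower. At an unadjusted p under 0.05, with the quasi-likelihood F test and with DESeq2, 0 of these 16 were lower. The 27 genes of type I and type III interferon held 3 calls higher (Mx1, Oas2 and Parp14), 7 lower and 17 not called, with a median of -0.42. Most genes of the former list also respond to type I interferon, so the list names do not say which interferon was present. In replicates 1 to 3 alone, 3 interferon gamma genes were called higher, and 1 gene of the other list was called higher and 2 lower, beside 2.01% and 1.35% of all tested genes. The quasi-likelihood F test on those libraries called 1 interferon gamma gene higher (Ido1) and 0 of the other list, where 1 was higher and 4 lower at an unadjusted p under 0.05.

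Of the 21 interferon ligand genes, 19 had 0 counts in every library. These were all the type I genes except Ifnk, and both type III genes, so no read was assigned to them. Depth is not the only limit, because reads that aligned to more than 1 place were not counted. Ifna1 shared 37.3% and Ifnz 68.4% of their stretches with other genes, and Ifnl2 and Ifnl3 overlap Samd4b. Ifnk had 0 to 4 counts per library in either group and was not tested. Ifng had 2, 1, 0, 1 and 8 counts in WT and 42, 12, 29, 31 and 16 counts in KSR23, which is 0 to 0.300 CPM and 0.387 to 1.15 CPM. Every KSR23 library lay above every WT library. The log2 fold change was 2.86 ± 0.75 (SE, n = 5 per group, edgeR adjusted p = 0.00167), and 4.30 in replicates 1 to 3 (adjusted p = 0.00504), where WT replicate 5, the highest WT library, was left out. The WT counts of that set, 2, 1 and 0, were all under the floor of 3, so the size of its fold change is uncertain. In that set Ifng met the count filter through KSR23 alone. The quasi-likelihood F test did not call it in those 6 libraries (edgeR adjusted p = 0.163). Of the Ifng stretches 16.2% are shared with the overlapping annotation Gm49751, and without a stated strand setting reads of the pair cannot be told apart.

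Of the 6 receptor genes 1 was called, where 18.5% of all tested genes were. It was Ifngr1, the ligand-binding chain for interferon gamma, at 110, 205, 167, 153 and 112 CPM in WT and at 234, 602, 170, 333 and 347 CPM in KSR23. The groups overlapped through KSR23 replicate 3 and the log2 fold change was 1.17 ± 0.35 (SE, edgeR adjusted p = 0.00891; 1.10 with adjusted p = 0.443 in replicates 1 to 3). Ifngr2, its partner, varied 11.2-fold within WT and 13.2-fold within KSR23 (log2 fold change -0.15, adjusted p = 0.924), and Ifnar2 14.4-fold and 11.5-fold (-1.06, adjusted p = 0.302). The log2 fold changes of Ifnar1, Ifnlr1 and Il10rb were 0.58, 0.31 and -0.10 (adjusted p = 0.216, 0.468 and 0.88). With 1 surrogate variable 2 of the 6 were called higher and 1 lower, beside 20.0% and 17.2% of all tested genes.

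**Figure D4:**
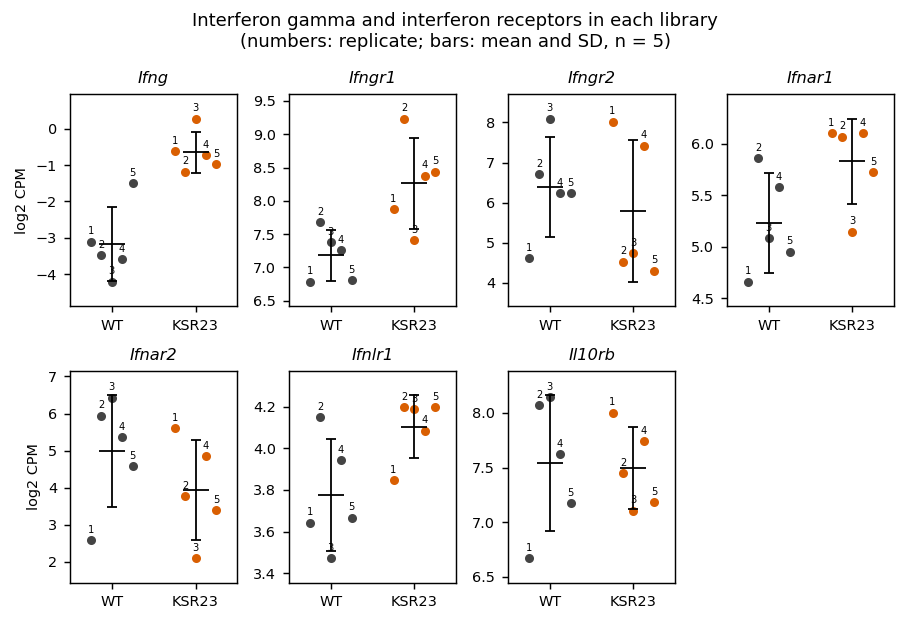
Ifng and the 6 interferon receptor genes in each library (vertical axis, log2 CPM with a prior count of 2; numbers are replicates; bars are the mean and SD of 5 libraries per group). Ifng is separate and higher in KSR23, whereas Ifngr2 and Ifnar2 spread more than 10-fold within each group.

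Among 11 signal transducers 2 were called higher and 0 lower by the likelihood ratio test (2 and 0 by DESeq2, 1 and 0 by the quasi-likelihood F test, 3 and 0 at an unadjusted p under 0.05), against 9.74% and 8.76% of all tested genes. Of these, replicates 1 to 3 gave 1 call higher by that test (Socs3) and by the quasi-likelihood F test 0, with 1 higher at an unadjusted p under 0.05. Socs3, a feedback inhibitor that many cytokines acting through STAT3 induce, rose most, from 1.09 to 6.08 CPM in WT to 22.1 to 163 CPM in KSR23 (log2 fold change 4.36 ± 0.60, SE, edgeR adjusted p = 1.54e-08). The kinase gene Tyk2 overlapped between the groups (1.18 ± 0.44, adjusted p = 0.0441; 0.0738 with the quasi-likelihood F test).

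Of 14 genes that sense nucleic acids or relay that signal, 7 were called higher and 0 lower by the likelihood ratio test (7 and 0 by DESeq2, 6 and 0 by the quasi-likelihood F test, 8 and 1 at an unadjusted p under 0.05). Over all tested genes these shares were 9.74% and 8.76% for the likelihood ratio test, 10.7% and 9.95% for DESeq2 and 8.47% and 6.91% for the quasi-likelihood F test. In replicates 1 to 3 alone 0 of the 13 with a value were called by either edgeR test, and at an unadjusted p under 0.05 the likelihood ratio test had 4 higher and 0 lower, and the quasi-likelihood F test 5 and 0. Tmem173 (STING), the relay for cytosolic DNA, stood at 7.08 to 14.9 CPM in WT and 17.8 to 43.2 CPM in KSR23 (log2 fold change 1.46 ± 0.33, SE, edgeR adjusted p = 0.000325). Zbp1, a sensor of Z-form nucleic acid, stood at 78.2 to 93.0 CPM and 140 to 305 CPM (1.17 ± 0.28, adjusted p = 0.000484). Traf3 (1.14), the RNA receptor gene Tlr3 (1.07), the kinase gene Tbk1 (0.98), the adaptor gene Myd88 (0.95) and Mavs (0.85), the adaptor of RIG-I and MDA5, had adjusted p of 0.00335 to 0.0365, and Myd88 was not called by the quasi-likelihood F test (adjusted p = 0.0551).

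A further list of interferon-response genes had 60 genes in the tables, of which 14 were called higher, 5 lower and 41 not called, with a median log2 fold change of 0.24. Over all tested genes 9.74% were higher and 8.76% lower. The count of lower genes was close to that share, but rose to 11 without KSR23 replicate 3 and to 9 with library totals alone. The list was drawn up with earlier results of these data known. Of the 8 further GTPase genes of the guanylate-binding and immunity-related families on it, a grouping made after the values were seen, Ifi47 (log2 fold change 0.55, edgeR adjusted p = 0.105) and Gm12250 (0.52, adjusted p = 0.287) were not called. The 6 called higher were Gbp10 (log2 fold change 3.37), Gbp11 (2.42), Tgtp1 (2.24), Tgtp2 (2.19), Gm4951 (1.68) and Gbp9 (0.98), although Gbp10, Tgtp1 and Tgtp2 shared 77.2% to 81.4% of their stretches with near-identical genes. Nlrc5, the transactivator of MHC class I genes, rose from 0.743 to 2.32 CPM in WT to 4.19 to 16.3 CPM in KSR23 (2.73 ± 0.43, SE, edgeR adjusted p = 8.98e-08), and Tap1, a peptide transporter of that pathway, had a log2 fold change of 1.47 (adjusted p = 0.0457). Tap1 overlapped between the groups, varied 4.28-fold within WT and 8.10-fold within KSR23, and was not called by the quasi-likelihood F test (adjusted p = 0.0912) or in replicates 1 to 3 (adjusted p = 0.559). The quasi-likelihood F test did not call Gbp9 either (adjusted p = 0.0561).

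The chemokine genes Cxcl9 and Cxcl10, whose products draw T cells, stood at 1.20 to 2.76 and 1.87 to 4.55 CPM in WT and at 2.77 to 13.3 and 6.25 to 13.2 CPM in KSR23, with log2 fold changes of 2.06 ± 0.43 and 1.84 ± 0.35 (SE, edgeR adjusted p = 7.75e-05 and 1.21e-05). Dtx3l and Parp9, which form a complex and share a promoter region, had log2 fold changes of 1.64 and 1.51 (adjusted p = 3.51e-08 and 1.4e-05), and Tdrd7 of 1.16 (adjusted p = 0.00417). Zbp1 was on this list as well as on the one above. The genes that were lower were Apol9b (-1.75), Oas1c (-1.38), Apol9a (-1.23), Ifi30 (-1.05) and Trim30d (-1.03), with adjusted p of 5.55e-06 to 0.0382 (Trim30d 0.0594 with the quasi-likelihood F test), and Apol9b shared 43.3% of its stretches with Apol9a. In replicates 1 to 3 alone, 6 of the 60 genes were called higher (Tgtp1, Tgtp2, Gm4951, Nlrc5, Parp9 and Dtx3l) and 0 lower by edgeR's likelihood ratio test, and 0 in either direction by the quasi-likelihood F test, where 10 were higher and 1 lower at an unadjusted p under 0.05.

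The cell types of the tissue were read from marker genes. All 10 markers of the jejunal epithelium were present, with a summed level of 19523 to 36693 CPM in WT and 12965 to 22553 CPM in KSR23, where Cdh1 and Krt20 were called higher and the absorption genes Fabp1, Fabp2 and Lct lower. Fabp1 and Fabp2 made up most of this sum, and the other 8 markers summed to 2130 to 6394 CPM in WT and 4480 to 7182 CPM in KSR23. With the quasi-likelihood F test Krt20 was called higher and Fabp2 lower, and the calls of Cdh1, Fabp1 and Lct were lost. Beside the higher Ifng and GTPase genes, 0 of 12 markers of T cells and cytotoxic lymphocytes were called higher and 4 lower (Cd3g, Cd8a, Nkg7 and Gzma) by edgeR's likelihood ratio test, and 0 were higher at an unadjusted p under 0.05 or with DESeq2. The quasi-likelihood F test did not call Cd8a. Over all tested genes 9.74% were higher and 8.76% lower. Their sum was 34.8 to 44.5 CPM in WT and 15.3 to 26.0 CPM in KSR23. Beside the lower antiviral genes, 3 of the 9 myeloid markers with a row were called lower (Cd68, C1qb and C1qc) and 1 higher (Itgam), with sums of 895 to 1084 CPM and 645 to 862 CPM, and of 5 markers of plasmacytoid dendritic cells, which make type I interferon, Siglech was called lower, with sums of 96.1 to 115 CPM and 54.0 to 96.0 CPM. The calls of Itgam, C1qc and Siglech were lost with the quasi-likelihood F test (adjusted p = 0.0521, 0.0697 and 0.061), and in replicates 1 to 3 none of the 9 myeloid or 5 plasmacytoid markers was called. Bst2 is 1 of those 5 markers as well as a member, and together with Tcf4 it made up most of their sum. Mean levels in WT and KSR23 were 41.2 and 27.0 CPM for Bst2, 59.1 and 45.3 CPM for Tcf4, and 4.15 and 2.2 CPM for Siglech. The fall of that sum is thus in part the fall of a member. Of the 5 general leukocyte markers 1 was called lower (Cd52), with sums of 156 to 172 CPM and 104 to 155 CPM.

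Of the 6 markers of type 3 lymphocytes, the main targets of IL-23, Il17f was called higher, and their sums overlapped at 109 to 154 CPM in WT and 76.0 to 157 CPM in KSR23. For the 7 neutrophil markers with a row the sums were 19.3 to 29.5 CPM and 6.61 to 14.7 CPM, with Elane called higher and Retnlg lower. Without Retnlg the other 6 summed to 4.42 to 12.6 CPM in WT and 4.37 to 12.4 CPM in KSR23. Elane had 0 counts in every WT library and 0 to 7 in KSR23, and neither the quasi-likelihood F test (adjusted p = 0.0838) nor DESeq2 called it. The 3 B cell markers used here summed to 5.73 to 8.02 CPM and 4.84 to 9.20 CPM, and the 5 endothelial markers to 77.1 to 109 CPM and 81.6 to 106 CPM, with Cdh5 called lower. The 7 genes of pancreatic acinar cells summed to 99.5 to 206 CPM in WT and 5.87 to 15.9 CPM in KSR23, and all 5 that were tested were called lower (4 with the quasi-likelihood F test). Cela1 and Ctrb1 made up most of the WT sum, at means of 70.6 and 82.2 CPM, whereas Cpa1, Cela3b and Sycn had means of 0.802, 1.15 and 0.382 CPM. Pnlip had too few counts to be tested, and the defining factor Ptf1a was at 0 in every library. The 5 keratinocyte markers summed to 8.61 to 17.6 CPM and 5.6 to 8.81 CPM, with Krt10 called lower and Dsg3 at 0. Among the markers, the likelihood ratio test on replicates 1 to 3 called Krt20 higher of the 10 epithelial markers, Gzma lower of the 12 T cell and cytotoxic markers, Retnlg lower of the 6 neutrophil markers with a value and 3 acinar markers lower (Cela1, Ctrb1 and Sycn). It called 0 of the general leukocyte, type 3 lymphocyte, B cell, endothelial and keratinocyte markers, and at an unadjusted p under 0.05 these lists held 2 higher type 3 lymphocyte markers and 1 lower each among the leukocyte, endothelial and keratinocyte markers. With the quasi-likelihood F test there 1 neutrophil and 1 acinar marker were lower and 0 of the other marker lists were called. The part of these cell types in the results was not tested.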

How the data were processed

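Jejunal RNA of WT and KSR23 mice (5 libraries each) had been primed with oligo-dT, amplified (SMART-Seq v4), made into Nextera XT libraries without molecular identifiers and sequenced as single 75-base reads. The authors deposited raw counts per gene symbol, made with TopHat2 2.1.0 on mm10 and HTSeq 0.6.1p1 (strict intersection); the strand setting is not given in the sources used here. The special rows for unassigned reads, 8.62 to 17.1 M of them not uniquely aligned per library, were left out. Because the transcripts were amplified by PCR, the floor of 3 counts covers counting error only.

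The 43 members, their roles and the other gene lists were chosen with earlier results of these data known. All 43 members are named, as are every ligand with a count, every receptor gene and every called transducer, sensor and other response gene except for a few genes that are not reported here and were left out of the lists' counts and sums; the rest are given as counts. Genes that reached 5 counts in any library (17632) were fitted in edgeR 4.0.16 (R 4.3.3) with TMM factors and a group term, tested by the likelihood ratio test and adjusted by Benjamini-Hochberg over all tested genes. CPM use the TMM-scaled totals. Alternatives were the quasi-likelihood F test, DESeq2 1.42.0, other scalings and filters, a replicate block, the Y-linked share, replicates 1 to 3 alone and leaving out each library. After the data had been seen, replicates 1 to 3 with the quasi-likelihood F test, 1 surrogate variable (sva 3.50.0) and offsets for transcript length and GC (mgcv 1.9.3) were added. The length was that of the joined exons of a gene, and the GC content that of its longest transcript. The scripts were tested on simulated data. Positions, exon lengths and shared 75-base stretches came from GENCODE M21 (94.6% of symbols matched, and all 43 members), promoters from RefSeq GRCm38.p6.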

Additional observations from a re-analysis of the deposited data

Results flagged for a closer look

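In 90 groups of 5 libraries (the members, Ifng and Ifngr1, each in WT and in KSR23), 9 values lay far from the others of their group by Dixon's test, where chance gives about 1 in 20 groups, or 4.5. That share assumes independent values. The 90 groups came from the same 10 libraries, and the independence of replicates 4 and 5 was not tested, so the 4.5 is only a rough guide. KSR23 replicate 2 was the low value for 7 of the 9. In that library Gbp2 was at 4.43 on the log2 CPM scale (next lowest KSR23 library 4.93), Igtp at 6.28 (6.79), Irgm1 at 6.17 (6.88), Irgm2 at 4.92 (5.92), Iigp1 at 5.91 (6.96), Ifi44 at 1.58 (2.69) and Mx2 at -1.18 (1.44), the last from 12 counts. WT replicate 3 was the low value for Gbp3, at 3.80 (next lowest WT library 4.21), and for Irgm2, at 3.60 (4.48).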

How the results depend on the processing

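No called member changed sign in any of the 12 other settings or the 10 fits that left out 1 library. With the quasi-likelihood F test 20 of the 22 calls were kept, with DESeq2 22, with RLE size factors 22, with library totals alone 20, without a filter 22, and with 5 or more counts in every library 19, where Ido1, Mx1 and Oas2 gave no value. The fit with 1 surrogate variable kept 22, the replicate block 18 and the length and GC offsets 16. Replicates 1 to 3 kept 6, and 1 with the quasi-likelihood F test. The Y-linked share kept 15 and lost Cd274, Gbp3, Gbp7, Ifit1, Ifit2, Parp14 and Rtp4.

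The Y-linked share as a covariate left 4 members lower (4 of the type I and III list) and 3 of the other response genes lower. Library totals alone gave 9 other response genes lower, and 5 or more counts in every library 1 of the type I and III list higher. Replicates 1 to 3 alone gave 4 members higher and 2 lower (3 interferon gamma genes higher; type I and III 1 higher, 2 lower; other response genes 6 higher, 0 lower), and with the quasi-likelihood F test there 1 member higher, an interferon gamma gene, and 0 of the type I and III and other response genes. With 1 surrogate variable 13 members were lower, all on the type I and III list, and 22 other response genes were higher and 14 lower. The causes were not tested, except that replicates 1 to 3 hold fewer libraries.

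Leaving out 1 library, members called higher ranged from 11 to 15 and lower from 4 (without WT replicate 5 or KSR23 replicate 4) to 8, the type I and III list lower from 4 to 8, and other response genes lower from 4 to 11 (the latter without KSR23 replicate 3). Of the 22 called members 15 were called in all 10 of these fits, Rtp4 in 8, Gbp7 in 6, Ifit2 and Cd274 in 5, Parp14 in 4, Gbp3 in 3 and Ifit1 in 1.

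Signs turned only for genes that were not called. Isg15 was at -0.0209 (DESeq2 and RLE), -0.0192 (Y-linked share), -0.116 (totals), -0.0034 (5 counts in every library), -0.13 (block) and -0.11 (surrogate variable), Irf9 at -0.094 (totals), -0.0289 (block), -0.0683 (surrogate variable) and -0.21 (length and GC), and Isg20 at -0.0143 (totals) and -0.13 (Y-linked share). With the Y-linked share Ifih1 was at 0.18, Mx2 at 0.10 and Oas3 at 0.0878. Ifih1 was at 0.0793 in replicates 1 to 3 and 0.0792 there by the quasi-likelihood F test, Ifngr2 at 0.0102 with totals and Il10rb at 0.0496 with the surrogate variable. Leaving out 1 library, the ranges were Ifih1 -0.162 to 0.123, Ifngr2 -0.813 to 0.51, Il10rb -0.267 to 0.0767, Irf9 -0.186 to 0.216, Isg15 -0.294 to 0.259 and Isg20 -0.0236 to 0.31.

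Libraries of the same number did not deviate together (r of -0.55, 0.25, -0.46, 0.11 and 0.22 for numbers 1 to 5), and 0 of 5 WT libraries correlated best with the KSR23 library of their number, so the numbers were not taken to pair libraries. With the replicate block 11 members were called higher and 7 lower (9 interferon gamma genes higher, 2 type I and III genes higher and 7 lower, 12 other response genes higher and 5 lower).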
